A study of Mus musculus with 12 samples.

Results

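Ephrins are ligands held on the surface of one cell that signal to Eph receptor tyrosine kinases on a neighbour, so the signal passes only at contact. A-ephrins hang on a lipid anchor and bind mostly EphA receptors, B-ephrins span the membrane and bind mostly EphB receptors, and EphA4 binds members of both families. Signalling runs into both cells and often repels a growing axon or keeps cells apart, and in the developing cochlea it is known for its part in guiding the fibres of spiral ganglion neurons (SGNs) through the surrounding mesenchyme. The 8 mouse ephrin genes, Efna1 to Efna5 and Efnb1 to Efnb3, were taken by name from a count table of 24489 genes. Their levels were followed across developmental stages, SGN classes, glia, otic mesenchyme (OM) and hair cells (HCs), and each of the 8 passed the filter on low counts in every comparison given here.

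Cells with the red reporter tdTomato were sorted from mouse cochleae into 384-well plates and sequenced by Smart-seq2, which reads whole transcripts of single cells. Each deposited sample is 1 plate, made from the pooled cells of several animals, and served as 1 replicate: 2 plates at E14.5, 2 at E15.5, 3 at E16.5, 1 at E17.5, 2 at E18.5 and 2 at P3. The labels gave PVcre;Ai14 for 11 plates and TrkCcre for E14.5 replicate 2, that is, Cre from the parvalbumin or the TrkC locus (Ai14 is the tdTomato reporter). The labels name no deletion and no treatment. The sorted wells also held glia- and OM-like cells, and whether these carried the reporter was not tested. For E14.5 and E15.5 the modiolus region was taken, at later stages the dissected spiral ganglion.

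A total of 4226 of 4608 wells passed the filters, with plate totals between 80997594 and 303906928 counts (median 108651215) and median counts per cell between 232473 and 1092427. The plates came in 4 series named in the labels. The 6 SS2_20 plates held all plates of E14.5, E15.5 and E17.5 and E16.5 replicate 3, and in them the median number of genes per cell was between 4691 and 4983, against 8426 to 9629.5 in the other plates. E16.5 replicates 1 and 2 (SS2_18), both E18.5 plates (SS2_19) and both P3 plates (SS2_15) formed the other series. SGNs, glia and OM were therefore compared within SS2_20, and beyond E17.5 stage and plate series cannot be told apart.

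Clusters were named from marker genes, with the ephrins and Eph receptors kept out of the clustering, which gave 2271 SGN-like, 1259 glia-like, 546 OM-like and 86 HC-like cells. In SS2_20 the SGN markers (12 genes, among them Tubb3 and Elavl3) summed to 13500–16700 CPM (each count scaled by the total of its class and plate) in SGN-like cells and to 190–772 CPM in glia- and OM-like cells. The 10 glia markers (among them Sox10 and Erbb3) reached 6570–10200 CPM in glia-like and 47.1–131 CPM in SGN-like cells of these plates. In SGN-like cells of E18.5 they stood at 2220–2260 CPM and in those of P3 at 4400–5420 CPM, and the few glia-like cells of E16.5 replicates 1 and 2 and of E18.5 carried SGN markers at up to 9220 CPM. Levels of different genes were compared only as CPM per kb of annotated exon.

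The genes lie on 6 chromosomes (GRCm38). Efna1 (chromosome 3, 89271733 to 89281142), Efna3 (89313899 to 89322965) and Efna4 (89333390 to 89338028) sit side by side on the minus strand within 66.3 kb. Exons of Efna3 overlap the antisense gene Gm15998 and those of Efna4 the antisense gene 4731419I09Rik, and since use of strand in the counting is not stated, reads from the partners cannot be told apart there. Efna2 is on chromosome 10 (80179482 to 80190010), Efna5 on 17 (62604184 to 62881317), Efnb1 on X (99136130 to 99148991), Efnb2 on 8 (8617434 to 8661242) and Efnb3 on 11 (69554092 to 69560205).

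The first question was which cochlear cell types carry which ephrins while SGN fibres grow towards the epithelium. Between E14.5 and E17.5 the B-ephrins Efnb3 and Efnb2 led in SGN-like cells and the A-ephrin Efna5 in glia-like cells, while OM-like cells held most of the family, Efna3 least. On the per-kb scale Efnb3 (24.8 ± 4.48 CPM per kb, SD, n = 6 plates) and Efnb2 (21.7 ± 4.89) led in SGN-like cells with overlapping ranges. Both lay above Efna2 (7.12 ± 1.19), and Efna1 was last (1.04 ± 1.34). In glia-like cells Efna5 (24.2 ± 2.94) stood clear of Efnb1 (11.8 ± 1.19), and Efna3 came last at 0.185 ± 0.0869, below every plate value of Efna1. The first 5 genes in OM-like cells were Efnb1 (36.2 ± 21.3), Efna4 (35.1 ± 17.7), Efnb3 (25.4 ± 8.19), Efna5 (21.8 ± 11.6) and Efna1 (19 ± 9.26), whose ranges overlapped from one to the next, with Efna3 again last (2.18 ± 0.914).

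**Figure D1:**
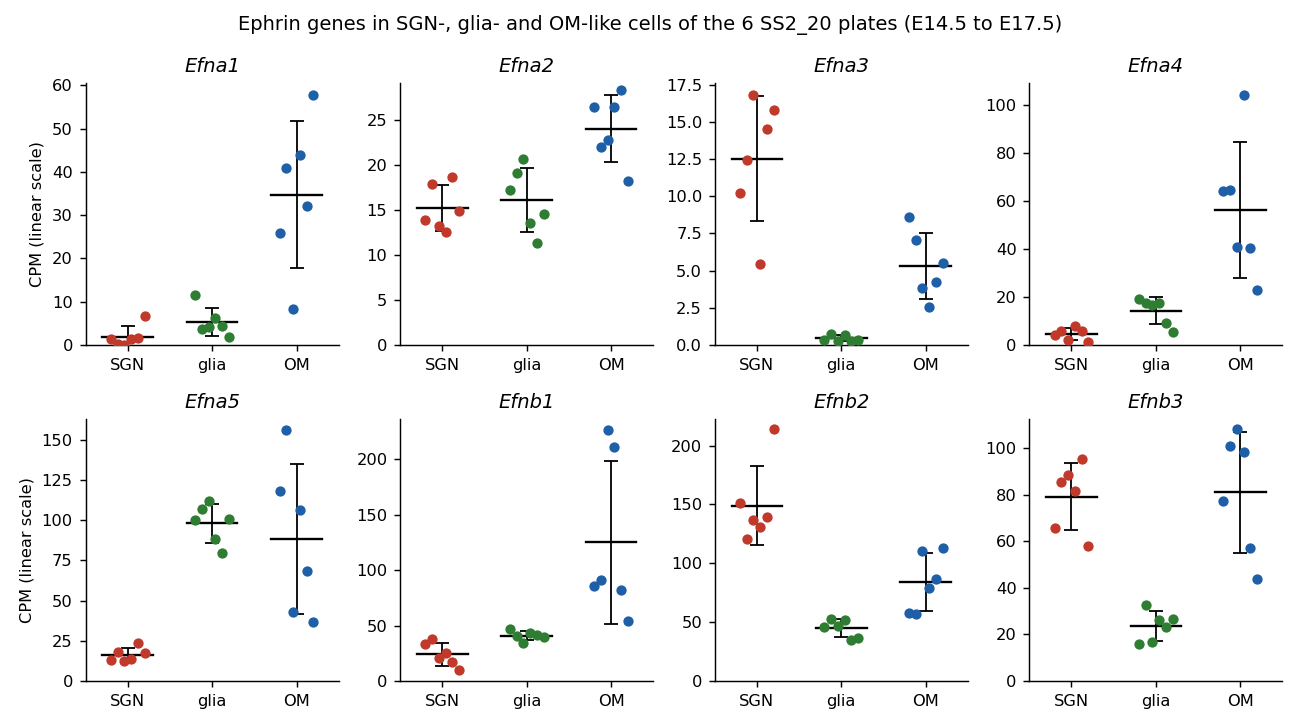
Level (CPM, linear scale) of each ephrin gene in SGN-, glia- and OM-like cells; each point is 1 of the 6 SS2_20 plates, the horizontal bar the mean and the error bar the SD. Efna3 in glia-like cells stays below 1 CPM, and Efna5 is above 79 CPM there and below 24 CPM in SGN-like cells. The E15.5 plates stand out with 226 and 211 CPM of Efnb1 in OM-like cells. An unnamed E15.5 cluster led by Coch, Otor and Tbx18 is not among these cells.

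Glia-like and SGN-like cells differed in 6 of the 8 ephrins (edgeR quasi-likelihood test on plate sums, Benjamini-Hochberg adjusted over all genes): 3 were higher in glia, in a comparison where 28.1% of all 16893 genes were, and 3 lower, where 23.8% of all genes were. Either way 51.9% of all genes differed, and the median log2 fold change was 0.45 for the ephrins and 0.14 for all genes. Among the A-ephrins Efna5, a ligand known for repelling axons, ranged over 12.5–23.6 CPM (median 15.3) in SGN-like cells and over 79.5–112 CPM (median 100) in glia-like cells. The groups did not overlap, and Efna5 was 5.99-fold higher in glia (log2 fold change 2.58, SE 0.24, adjusted p = 1.28e-06). Efna3, another lipid-anchored ligand, showed the opposite pattern, with 5.45–16.8 CPM (median 13.4) in SGN-like cells and at most 0.762 CPM in glia-like cells. It was 28.4-fold lower in glia (−4.83, SE 0.47, adjusted p = 2.01e-06). Its chromosomal neighbour Efna4 ran from 1.27 to 8.03 CPM in SGN-like and from 5.38 to 19.2 CPM in glia-like cells, with overlapping ranges, and was 2.87-fold higher in glia (1.52, SE 0.42, adjusted p = 0.0085). This call was lost without E14.5 replicate 1 (1.43, adjusted p = 0.0661).

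The B-ephrins Efnb2, the main ligand of EphB4, and Efnb3, both with cytoplasmic tails that signal into their own cell, were lower in glia. Efnb2 had 121–214 CPM (median 138) in SGN-like against 34.8–52.7 CPM (median 46.5) in glia-like cells, a 3.39-fold difference (−1.76, SE 0.14, adjusted p = 3.09e-07). For Efnb3 the values were 58.1–95.4 CPM (median 83.5) and 15.8–32.7 CPM (median 24.7), a 3.42-fold difference (−1.77, SE 0.21, adjusted p = 1.09e-05). In neither gene did the plate values of glia and neurons overlap, but the share of all genes without overlap in this comparison was not counted. Efnb1, an X-linked ligand known for keeping cell populations apart, went the other way, from 10.1–38.1 CPM in SGN-like to 34.0–46.4 CPM in glia-like cells (0.84, SE 0.15, adjusted p = 0.000423), and its ranges overlapped, since SGN-like cells of E14.5 replicate 2 lay above the lowest glia-like value. The 14 OM markers summed to 1810–5700 CPM in glia-like, 55.3–244 CPM in SGN-like and 13300–38500 CPM in OM-like cells of these plates, and their part in the differences between glia and SGNs was not tested.

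Single cells of E14.5 showed the same order for the leading genes. Efna5 had a count in 68.7% of 211 glia-like and 23.8% of 130 SGN-like cells (68.0 and 21.3% with each cell thinned to 100000 counts). Efnb2 had one in 43.6% of the glia-like and 87.7% of the SGN-like cells (39.4 and 87.4% when thinned).

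The remaining A-ephrins did not pass the test between glia and SGNs. Efna2 ran over 12.5–18.7 CPM in SGN-like and 11.3–20.7 CPM in glia-like cells, higher in glia in some plates and lower in others (0.05, 95% interval −0.37 to 0.47). Efna1, a ligand of EphA2, ranged over 0.0–6.71 CPM in SGN-like and 1.92–11.5 CPM in glia-like cells (1.85, SE 0.74, adjusted p = 0.0534). In SGN-like cells of E15.5 replicate 1 it had 0 of 19204949 counts, which would allow up to 0.156 CPM if reads were independent. Reads without molecular barcodes are not, so the true limit is looser. With the plate as a replicate block Efna1 passed (2.32, adjusted p = 0.0233), and so it did without E15.5 replicate 2 (4.17, adjusted p = 0.00584).

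Otic mesenchyme, the tissue that SGN fibres cross, held higher levels of 5 ephrins than SGN-like cells (25.5% of all genes were higher) and lower levels of 2 (26.7% lower, 52.2% either way). The median log2 fold change of the 8 ephrins was 1.44, that of all genes −0.08. Efna1 ranged over 8.31–57.7 CPM (median 36.4) in OM-like cells, above every SGN-like plate, and was 24.5-fold higher (4.62, SE 0.82, adjusted p = 0.000406). Efna4, at 22.9–104 CPM (median 52.4), was 11.5-fold higher (3.52, SE 0.45, adjusted p = 2.57e-05). Efna5 at 36.6–156 CPM was 4.95-fold higher (2.31, SE 0.24, adjusted p = 3.41e-06). For these 3 A-ephrins no OM-like plate fell into the SGN-like range, and the share of all genes without overlap was not counted.

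Efnb1 had 226 and 211 CPM in OM-like cells of E15.5 and 54.0–91.3 CPM in those of the other plates, and was 4.76-fold higher than in SGN-like cells (2.25, SE 0.16, adjusted p = 1.04e-07). Efnb2 was 1.86-fold lower (56.9–113 CPM; −0.90, SE 0.14, adjusted p = 0.00011), and Efnb3 did not pass (43.6–108 CPM; −0.07, 95% interval −0.46 to 0.33). Efna3 (2.55–8.58 CPM) was 2.58-fold lower (−1.36, SE 0.40, adjusted p = 0.0124). That call was lost without E14.5 replicate 2 (adjusted p = 0.0793), E15.5 replicate 1 (0.0527), E16.5 replicate 3 (0.0736) or E17.5 replicate 1 (0.0606). The call of Efna2 (18.2–28.3 CPM; 0.63, SE 0.21, adjusted p = 0.0243) was lost without any 1 of the 6 plates (adjusted p between 0.0508 and 0.181). It was also lost with the plate as a block (0.64, adjusted p = 0.0538). OM-like cells of E15.5 came from 1 cluster of 48 cells. Another of 20 cells, led by Coch, Otor, Car3 and Tbx18, got no name and was left out. At E14.5 a cluster led by Tgfbi and Otor counted as OM-like. The mix of OM-like cells thus differed between these stages, and its part in the E15.5 values, such as those of Efnb1, was not tested.

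Set against glia, OM-like cells were higher in 6 of the 8 ephrins, where 12.2% of all genes were higher and 28.5% differed. The differences were 11-fold for Efna3 (3.46, SE 0.44, adjusted p = 7.71e-05), 3.99-fold for Efna4 (2.0, SE 0.42, adjusted p = 0.00331) and 3.26-fold for Efnb3 (1.71, SE 0.21, adjusted p = 5.19e-05). Efnb1 was 2.66-fold and Efnb2 1.82-fold higher. Efna1 (2.77, SE 0.75, adjusted p = 0.0145) lost its call without E14.5 replicate 2 (2.44, adjusted p = 0.0949) or E17.5 replicate 1 (2.44, adjusted p = 0.104). Efna2 (0.58, adjusted p = 0.0591) and Efna5 (−0.27, adjusted p = 0.402) did not pass. The median log2 fold change of the 8 ephrins was 1.56, that of all genes −0.19.

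Genes listed as vessel markers were measurable in the OM-like cells. The 8 endothelium markers (among them Pecam1, Cdh5 and Emcn) summed to 283–543 CPM there, and the 5 pericyte markers to 75.1–109 CPM. The endothelium sum was 4.54–18.7 CPM in SGN-like and 3.84–177 CPM in glia-like cells. In OM-like cells of E15.5 5 of the 8 were at 0 in each plate, while the sum was 287–531 CPM. Emcn was also a leading gene of an OM-like cluster of E14.5 led by Tgfbi and Otor. The sum is therefore no measure of vessel cells. Of 523 OM-like cells in SS2_20, 3 had counts for at least 3 endothelium markers and 8 for at least 3 pericyte markers. Without these 11 cells the OM-like levels ran from 8.31 to 58.5 CPM for Efna1 (median 35.8), from 23.2 to 108 CPM for Efna4 (median 52.7) and from 54.7 to 226 CPM for Efnb1. They held at most 14.3% of the Efna1 counts of a plate, 1.77% of those of Efna4 and 4.84% of those of Efnb1.

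The Eph receptors, the partners on facing cells, were set through the same comparisons. Of 14 receptors 4 were higher and 5 lower in glia-like than in SGN-like cells, where 28.1 and 23.8% of all genes were and 51.9% differed either way. In OM-like cells 5 were higher and 5 lower, where 25.5 and 26.7% of all genes were and 52.2% differed. On the neuronal side Epha4, which binds both ephrin families, reached 252–332 CPM in SGN-like and 9.99–27.4 CPM in glia-like cells (−4.16, SE 0.16, adjusted p = 6.94e-10). Epha8 (17.3–41.1 CPM in SGN-like and at most 1.87 CPM in glia-like cells) and Epha10 (22.6–122 and at most 0.808 CPM) were also lower in glia. Higher in glia were Epha2 (6.39), Ephb4 (6.29) and Epha3 (2.78), and Ephb4 was higher again in OM-like cells, with 145–256 CPM against 49.7–61.6 CPM in glia. Epha4 in OM-like cells (370–434 CPM) exceeded its level in glia by 4.56 on the log2 scale (SE 0.16, adjusted p = 7.09e-09). Ephb4 and Epha2 belong to the glial gene list, which the study drew from its E18.5 cells and not from these plates.

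Of 26 listed proteins that relay or process Eph and ephrin signals, 12 were higher and 9 lower in glia than in SGNs. There 28.1 and 23.8% of all genes were, and 51.9% differed either way. In OM 4 were higher and 9 lower than in SGNs, where 25.5 and 26.7% of all genes were and 52.2% differed. Syntenin (Sdcbp), which binds the tails of B-ephrins, was higher in both (2.60, SE 0.08, adjusted p = 2.28e-10 in glia, and 2.04, SE 0.08, adjusted p = 1.16e-09 in OM). The Rac regulator Chn2 (−6.34 in glia) and the exchange factor Arhgef15 (−5.87 in glia and −3.93 in OM) were lower. The sheddase Adam10, which cleaves ephrins, was lower in OM than in glia (−0.94, SE 0.15, adjusted p = 0.000449).

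The next question was how the ephrins change with age. Within SS2_20, E16.5 replicate 3 and E17.5 were set against E14.5. The E14.5 plates also differed from these in the dissected region. By label E14.5 replicate 2 differed in its Cre driver too, and by the study's methods all E14.5 animals did. In every contrast with E14.5, age therefore cannot be told apart from dissection and driver. In SGN-like cells 1 of 8 ephrins, Efnb1, passed (1.53% of all genes were lower and 2.4% differed either way). It had 33.7 and 38.1 CPM at E14.5, 20.4 and 25.6 CPM at E15.5, 17.1 CPM at E16.5 and 10.1 CPM at E17.5, so that no later plate reached the E14.5 values. The fold change was 2.66 downwards (−1.41, SE 0.27, adjusted p = 0.0156). It no longer passed without E14.5 replicate 1 (adjusted p = 0.132), E14.5 replicate 2 (0.148) or E17.5 replicate 1 (0.151).

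In glia-like cells 0 of 8 ephrins passed (0.136% of all genes did; edgeR called 0 at an unadjusted p under 0.05 and DESeq2 called 0). In OM-like cells 0 of 8 passed in edgeR (0.29% of all genes), with 3 at an unadjusted p under 0.05 and 1 by DESeq2. Those 3 were Efna5, Efnb2 and Efnb3, named after their values were seen. Efna5 had 118 and 156 CPM at E14.5 and 68.5 and 36.6 CPM later (−1.38, SE 0.39, adjusted p = 0.231), and Efnb2 had 57.3 and 56.9 CPM at E14.5 and 86.9 and 113 CPM later (0.81, SE 0.24, adjusted p = 0.237). The difference between the changes of glia and SGNs was tested directly and passed for 0 of 8 genes in edgeR (0.841% of all genes; 2 at an unadjusted p under 0.05, 1 by DESeq2). It was 1.37 for Efnb1 (SE 0.37, adjusted p = 0.148), and 2.14 (adjusted p = 0.0342) with SGN-like cells under their plate's median share of glial genes.

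**Figure D2:**
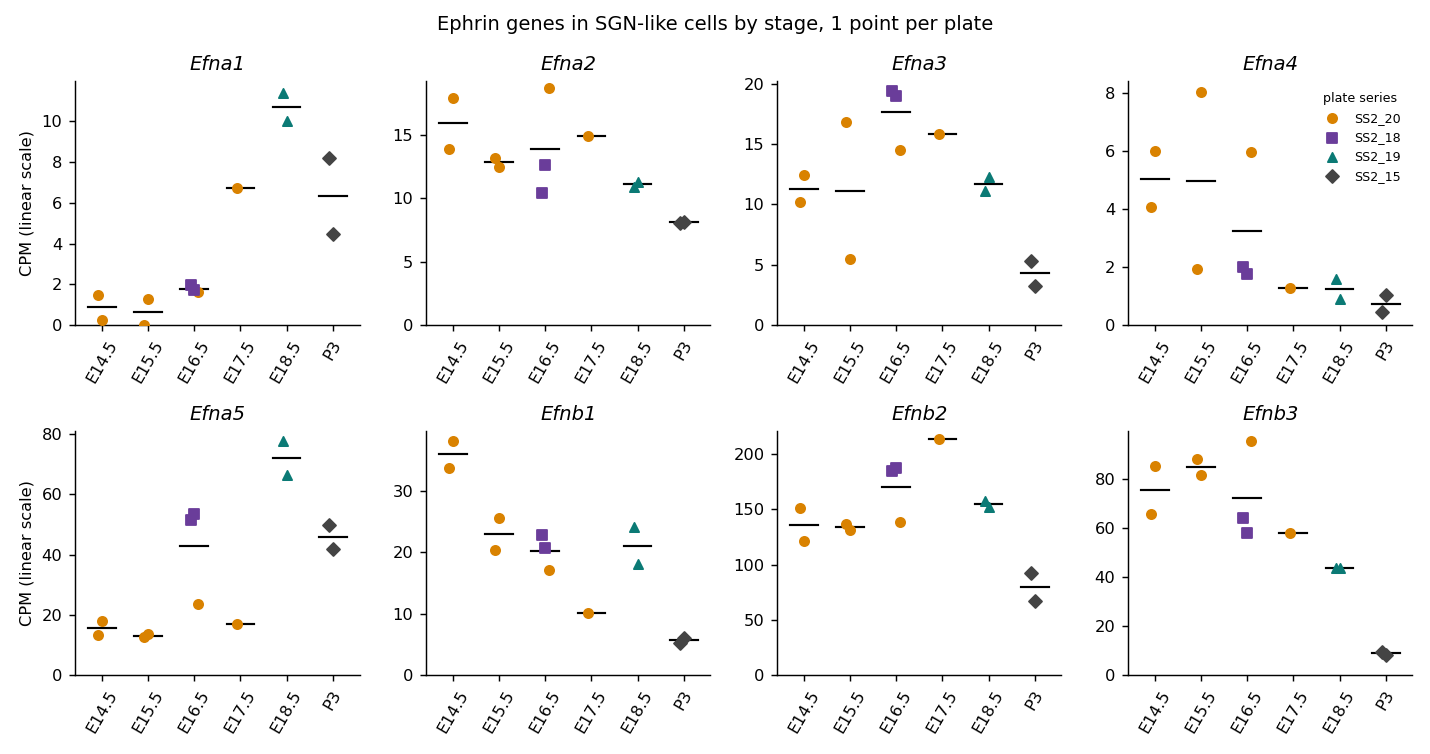
Level (CPM, linear scale) of each ephrin gene in SGN-like cells by stage; each point is 1 plate, its marker the plate series, and the horizontal bar the mean of the stage. Efnb3 and Efnb1 are lowest in the 2 P3 plates, while Efna5 separates the E16.5 plates by series, 51.6 and 53.6 CPM in SS2_18 against 23.6 CPM in SS2_20.

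Across all 12 plates, SGN-like cells of E16.5 differed from those of E14.5 in 2 ephrins, 1 higher (8.84% of all genes) and 1 lower (6.11%), where 15% of all 17821 genes differed. Efna5 had 13.3 and 17.8 CPM at E14.5 and 51.6, 53.6 and 23.6 CPM at E16.5, without overlap (1.45, SE 0.32, adjusted p = 0.013). The single SS2_20 plate of E16.5 was the low one. Within SS2_20 the difference was 0.59 (SE 0.45, adjusted p = 0.639), and without E14.5 replicate 1 it was 1.3 (adjusted p = 0.0786). Efnb1 was lower at E16.5 (22.8, 20.6 and 17.1 CPM; −0.85, SE 0.22, adjusted p = 0.0275), and −1.09 (adjusted p = 0.269) within SS2_20. Its call was lost without E14.5 replicate 1 (adjusted p = 0.0573) or 2 (0.0846) and without E16.5 replicate 1 (0.0511) or 2 (0.0788).

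From E16.5 to E18.5 0 of 8 ephrins passed in edgeR (4.83% of all genes), with 3 at an unadjusted p under 0.05 and 2 by DESeq2. These included Efnb3, with 64.1, 57.8 and 95.4 CPM at E16.5 and 43.5 and 43.8 CPM at E18.5 (−0.71, SE 0.21, adjusted p = 0.0905). Efna1 stood at 1.99, 1.73 and 1.65 CPM at E16.5 and at 11.4 and 9.99 CPM at E18.5, without overlap (2.60, SE 0.96, adjusted p = 0.172). Without E15.5 replicate 1 or replicate 2, plates that bear on this contrast through the shared spread and scaling, Efna1 passed at 2.60 (adjusted p = 0.0381 and 0.0382).

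All 3 B-ephrins were lower in SGN-like cells at P3 than at E18.5, where 12.2% of all genes were lower and 24.9% differed, and the 5 A-ephrins did not pass. The median of the 8 ephrins was −0.57 and that of all genes −0.09. Efnb3 fell from 43.5 and 43.8 CPM to 9.42 and 8.32 CPM, 4.05-fold (−2.02, SE 0.23, adjusted p = 0.000193). Efnb1 fell from 24.0 and 18 CPM to 5.21 and 6.08 CPM, 3.07-fold (−1.62, SE 0.25, adjusted p = 0.00098), and the adjusted p was 0.0524 with SGN-like cells under their plate's median share of glial genes. Efnb2 went from 158 and 152 CPM to 92.5 and 67.3 CPM (−0.67, SE 0.19, adjusted p = 0.0243). None of the 3 overlapped between the stages, with 2 values on each side, and the share of all genes without overlap was not counted. The call of Efnb2 was lost without P3 replicate 2 (−0.47, adjusted p = 0.163), E18.5 replicate 1 (adjusted p = 0.105) or E18.5 replicate 2 (0.0772).

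Among A-ephrins Efna3 had 11.1 and 12.3 CPM at E18.5 and 5.32 and 3.28 CPM at P3 (−1.16, SE 0.47, adjusted p = 0.103). It passed without E15.5 replicate 1 (adjusted p = 0.0272) or replicate 2 (0.0243). The stages differed in plate series and in glia markers within SGN-like cells (2220–2260 and 4400–5420 CPM), whose part in these results was not tested. Of the 14 Eph receptors 7 were lower at P3 and 0 higher, where 12.2% of all genes were lower and 24.9% differed. They were led by Epha10 (−1.63, SE 0.15, adjusted p = 6.55e-05), Ephb3 (−1.28, SE 0.15, adjusted p = 0.000192) and Epha3 (−1.21, SE 0.21, adjusted p = 0.00215). From E14.5 to E16.5 Ephb3 (2.32, SE 0.15, adjusted p = 2.52e-05) and Epha10 (1.74) had been among 3 receptors that rose over all plates. Epha5 (−1.13) and Epha3 (−0.76) fell, where 8.84% of all genes were higher and 6.11% lower. Within SS2_20, E16.5 and E17.5 against E14.5, edgeR called 1 receptor, Ephb3 (2.69, SE 0.31, adjusted p = 0.000793), where 2.4% of all genes differed. There 3 receptors had an unadjusted p under 0.05 and DESeq2 called 1.

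SGNs come in classes: type I neurons (Ia, Ib and Ic) contact inner hair cells, and the rare type II neurons contact outer hair cells. Of 2271 SGN-like cells 701 got no class, 189 of 628 at E18.5 and 127 of 501 at P3, the latter a cluster that scored highest for Ib markers but was led by genes of another class, and these enter none of the class comparisons. At E18.5 and P3 Efna5 separated type II from type I, and 5 of the 8 ephrins differed between II-like cells and the mean of the type I classes: 3 higher (9.6% of all 15025 genes) and 2 lower (11.1%), against 20.7% of all genes either way. Efna5 had 635 and 706 CPM in II-like cells of E18.5 and 754 CPM in those of P3 replicate 1. At E18.5 it had 22.1 and 25.7 CPM in Ia-like, 15.9 and 7.12 CPM in Ib-like and 15.7 and 10.6 CPM in Ic-like cells, and no type I sum of either stage was above 34.4 CPM. The difference was 46.1-fold (5.53, SE 0.21, adjusted p = 4.33e-10), and it passed with every plate left out. II-like cells of P3 replicate 2 numbered 4 and were not part of this fit.

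The level was carried by the class as a whole. All 43 II-like cells of E18.5 had Efna5 counts, from 95.7 to 1670 CPM (median 624), as had 21 of 22 at P3 (median 744). By contrast 65.8% of 231 Ia-like cells of E18.5 had a count (median 13.2 CPM, highest 286), 37.8% of 45 Ib-like and 41.7% of 120 Ic-like cells. With every cell thinned to 100000 counts these shares were 57.0, 31.1 and 37.5%, and 100% in II-like cells. On the per-kb scale Efna5 (157 and 175 CPM per kb in the 2 plates) was first among the ephrins in II-like cells of E18.5, before Efnb1 (12.3 ± 0.279), whereas the type I classes were led by Efnb2 (19.5 ± 1.78 to 26.1 ± 0.717).

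**Figure D3:**
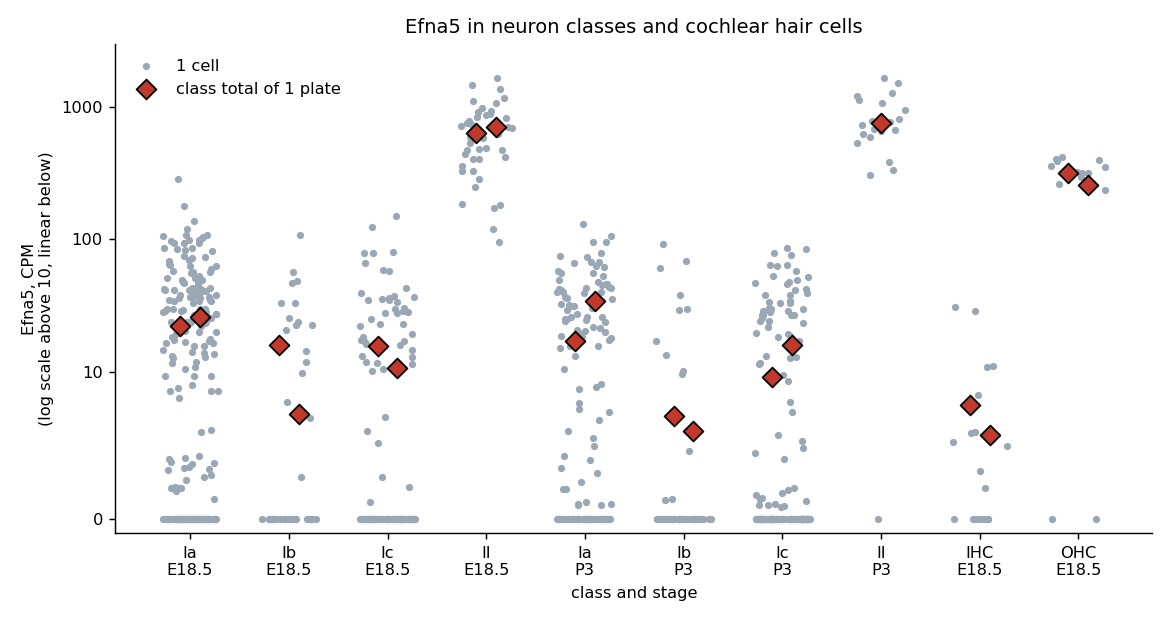
Efna5 in single cells (grey) and as the total of a class in 1 plate (red diamonds) for the neuron classes of E18.5 and P3 and for inner and outer hair cells (IHC, OHC) of E18.5, in CPM on a log scale above 10 and a linear scale below. The II- and OHC-like totals lie between 257 and 754 CPM, above every other class total shown.

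The class weighed on the level of the whole ganglion. II-like cells held 71.0% (95% Wilson interval 69.9–72.0) and 67.5% (66.5–68.4) of the Efna5 counts of SGN-like cells at E18.5, but 8.71 and 6.34% of all counts. At P3 they held 77.0% (76.3–77.6) and, with 4 cells, 62.3% (61.0–63.5) of them, with 5.08 and 2.59% of all counts. These intervals cover counting error only, since reads without molecular barcodes are not independent molecules. The change of Efna5 in SGN-like cells from E16.5 to E18.5 was 0.76 with the II-like cells (adjusted p = 0.193) and −0.82 without them (adjusted p = 0.209). No cells were named II-like at E16.5, so this took cells high in Efna5 out of the E18.5 side alone, and the direction of the shift follows from that.

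**Figure D4:**
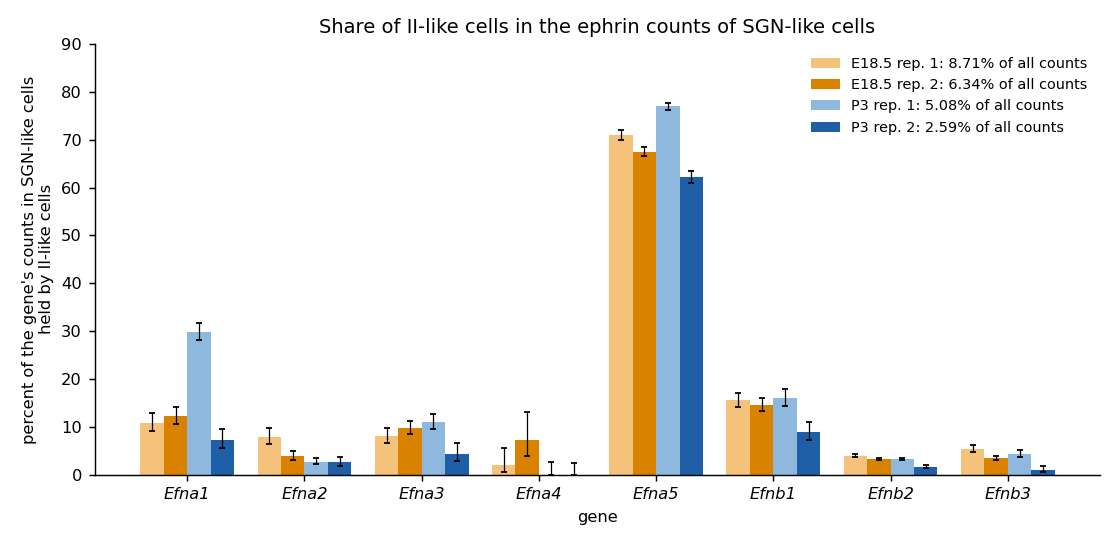
Percent of each ephrin gene's counts in SGN-like cells that II-like cells held, by plate of E18.5 and P3; error bars are 95% Wilson intervals and the key gives the share of all counts in these cells. Efna5 stands at 62.3 to 77.0%, while for Efnb2 and Efnb3 the share is at most 5.43%.

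Efnb1 was the B-ephrin that was higher in type II, with 43.0 and 41.6 CPM in II-like cells of E18.5, and at both stages it was above every type I sum of the same stage (10.6–21.0 CPM at E18.5 and 3.42–5.34 CPM at P3). The difference was 2.73-fold (1.45, SE 0.21, adjusted p = 0.000161). Efnb2 was 1.94-fold lower, with 71.6 and 78.9 CPM at E18.5 and 59.8 CPM at P3 (−0.96, SE 0.16, adjusted p = 0.000448), and in this gene too the II-like values lay outside the type I range of their stage. At P3 the nearest type I sum was close, at 61.7 CPM. With clusters at Leiden resolution 2 the Efnb2 difference was −0.37 (adjusted p = 0.0559). Efnb3 (27.2, 23.9 and 8.10 CPM) was lower by less (−0.78, SE 0.22, adjusted p = 0.0216), and not without E18.5 replicate 1 (adjusted p = 0.172) or 2 (0.202). At P3 its II-like value lay above both Ia-like sums (5.67 and 5.43 CPM) and below the Ib- and Ic-like ones. Efna1 had 15.8 and 14.0 CPM in Ia-like cells of E18.5, overlapping the II-like values of that stage. Its difference from type I (14.4, 19.3 and 48.1 CPM in II-like cells; 2.29, SE 0.63, adjusted p = 0.0176) rested on P3 replicate 1, without which it was 1.06 (adjusted p = 0.396). Without E18.5 replicate 2 it was 2.64 (adjusted p = 0.081), and with the plate as a replicate block 1.95 (adjusted p = 0.0783).

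Glia markers summed to 2640–3710 CPM in II-like cells of E18.5, against 1210–1470 CPM in Ia-like, 912–1160 CPM in Ib-like and 1830–1970 CPM in Ic-like cells. OM markers summed to 748–1390 CPM, against 345–363, 174–360 and 531–556 CPM. Glia-like cells of the same plates had 73.5 and 66.6 CPM of Efna5 as class totals. The part of glia and OM transcripts in the type II differences was not tested. Of the 14 Eph receptors 5 were higher in II-like cells and 3 lower, where 9.6 and 11.1% of all genes were. Epha6 (8.10–33.0 CPM, against at most 2.81 in a type I sum; 4.17, SE 0.61, adjusted p = 0.000188) and Ephb3 (1.22, SE 0.17, adjusted p = 0.00011) were higher, and Epha4 was lower (38.2–107 CPM against 148–307 CPM; −1.69, SE 0.17, adjusted p = 7.64e-06). Among the relay proteins Chn2 (3.87) was higher and the exchange factor Kalrn (−1.22) and the scaffold Grip2 (−2.64), which binds B-ephrin tails, were lower.

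Among the type I classes 1 ephrin passed, in 1 of the 3 contrasts. Between Ib and Ia 1 of 8 passed (2.59% of all genes): Efna5 was 2.89-fold lower in Ib-like cells, with 15.9 and 7.12 CPM at E18.5 and 7.0 and 5.98 CPM at P3, against 22.1 and 25.7, and 16.9 and 34.4 CPM in Ia-like cells (−1.53, SE 0.29, adjusted p = 0.00936). No Ib-like plate reached the Ia-like range, but the call was lost without E18.5 replicate 2 (−1.46, adjusted p = 0.124), with the E18.5 plates alone (−1.08, adjusted p = 0.124) and with Leiden resolution 2 (−0.57, adjusted p = 0.624). Between Ic and Ia edgeR called 0 of 8 (3.65% of all genes; 3 at an unadjusted p under 0.05, 1 by DESeq2). Efna5 was at −0.94 (SE 0.27, adjusted p = 0.0736), with 9.62–16.0 CPM in Ic-like cells. Between Ic and Ib edgeR again called 0 of 8 (1.06% of all genes; 2 at an unadjusted p under 0.05, 0 by DESeq2).

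Ephb3 set Ia apart from the other type I classes, with 80.2–194 CPM in Ia-like, 24.1–55.2 CPM in Ib-like and 21.3–57.9 CPM in Ic-like cells. It was lower in Ib (−1.57, SE 0.20, adjusted p = 0.000582) and in Ic (−1.82, SE 0.20, adjusted p = 7.73e-05). The exchange factor Vav3 was higher in both Ib (2.74, SE 0.32, adjusted p = 0.000399) and Ic (2.58, SE 0.32, adjusted p = 0.000206). Epha7 (0.81) and Epha5 (0.55) were higher in Ib than in Ia.

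At earlier stages 84 unspecialized-like cells (E14.5), 337 intermediate Ia/Ib/II-like cells (E16.5) and early Ic-like cells were told apart. Between early Ic-like and intermediate cells 0 of 8 ephrins passed in edgeR (0.114% of all genes; 0 at an unadjusted p under 0.05, 0 by DESeq2). At E16.5 Efna5 had 46.4, 53.8 and 28.8 CPM in intermediate and 21.5, 14.7 and 0.0 CPM in Ic-like cells, and in each plate the Ic-like value was the lower one (−1.79, 95% interval −4.04 to 0.47). Of the single cells 70.0% of 337 intermediate and 36.7% of 218 Ic-like cells had an Efna5 count (63.4 and 34.8% when thinned). Intermediate and unspecialized cells shared no stage, so their contrast could be estimated only through the Ic-like cells present at both and assumes that the stage acts alike on all classes. It called 0 of 8 ephrins in edgeR (1.21% of all genes; 3 at an unadjusted p under 0.05, 1 by DESeq2). Of 13 Eph receptors tested it called 3. Epha10 was higher in intermediate cells (4.92, SE 0.84, adjusted p = 0.0199). Ephb3 (−3.96, SE 0.85, adjusted p = 0.0468) and Epha5 (−1.9, SE 0.41, adjusted p = 0.0484) were lower. For Ephb3 this ran against its rise from E14.5 to E16.5 in SGN-like cells as a whole (2.32).

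Efna3 had 3.89 and 0.466 CPM in unspecialized-like cells against 23.5 and 37.1 CPM in Ic-like cells of the same E14.5 plates, and 11.5–20.0 CPM in intermediate cells of E16.5. The contrast of intermediate with unspecialized cells was 3.46 for this gene (SE 1.01, adjusted p = 0.129), and 5.95 (adjusted p = 0.0065) without E14.5 replicate 1. The Ic-like cells of E14.5 numbered 8 and 9.

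Hair cells, the targets of SGN fibres, were set against SGN-like cells of the 2 E18.5 plates. Cochlear HC-like cells (34 cells, 20 IHC-like and 14 OHC-like) were higher in 1 ephrin and lower in 3 (25.7% of all genes were higher, 29.7% lower and 55.4% different). Efna4 had 15.1 and 8.91 CPM in HC-like and 1.60 and 0.914 CPM in SGN-like cells, 9.41-fold higher (3.23, SE 0.47, adjusted p = 0.00245). Efnb2 was 6.31-fold lower, at 33.4 and 16.6 CPM against 158 and 152 CPM (−2.66, SE 0.30, adjusted p = 0.000991). Efna2 (3.22 and 4.10 CPM against 10.9 and 11.3 CPM; −1.63, SE 0.29, adjusted p = 0.00551) and Efnb3 (20.0 and 16.8 CPM against 43.5 and 43.8 CPM; −1.27, SE 0.17, adjusted p = 0.00205) were lower too. Values of the 4 genes did not overlap between the cell types. With 2 values on each side this is weak, and the share of all genes without overlap was not counted.

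The Efna5 difference varied with the neurons and the hair cells that were pooled. The gene had 155 and 75.6 CPM in cochlear HC-like and 77.9 and 66.3 CPM in SGN-like cells (0.65, SE 0.32, adjusted p = 0.14). With the plate as a replicate block it passed at 0.57 (adjusted p = 0.0264). Against SGN-like cells without the II-like ones, the neurons highest in Efna5, it was 2.24 (SE 0.33, adjusted p = 0.00232). Taking out those neurons lowers the SGN-like side, so the direction of that shift was fixed beforehand. In the same plates IHC-like cells had 7.73 and 5.68 CPM and OHC-like cells 319 and 257 CPM. The pooled hair cell value thus describes neither type. Supporting-cell markers (8 genes, among them Epcam) summed to 3450–3870 CPM in cochlear HC-like cells and to 7.52–8.22 CPM in SGN-like cells, and their part in these differences was not tested.

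Outer and inner hair cells differed in 2 of 8 ephrins, both higher in OHC-like cells (3.95% of all 11834 genes were higher and 9.12% differed). Efna5 had 319 and 257 CPM in OHC-like against 7.73 and 5.68 CPM in IHC-like cells, 41.1-fold higher (5.36, SE 0.30, adjusted p = 3.22e-07). Of 14 OHC-like cells 12 had a count (median 319 CPM), and of 20 IHC-like cells 12 had one (median 4.08 CPM, highest 30.6). When thinned, 85.7% of OHC-like and 25% of IHC-like cells had a count. Efnb2 had 52.7 and 42.2 CPM in OHC-like and 16.1 and 6.67 CPM in IHC-like cells (2.0, SE 0.50, adjusted p = 0.021).

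For the other 6 ephrins the OHC-like and IHC-like levels had log2 intervals that included 0, such as −1.30 to 1.14 for Efna1 and −1.55 to 0.87 for Efnb1. The sums rest on 9 and 5 OHC-like and 9 and 11 IHC-like cells. OM markers reached 795–815 CPM in OHC-like and 2420–5400 CPM in IHC-like cells, and supporting-cell markers 2880–3120 and 3570–4750 CPM.

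Between the hair cell types 9 of the 14 Eph receptors passed the filter on low counts. Epha7 was lower in OHC-like cells, with 4.30 to 24.3 CPM against a median of 191 and up to 242 CPM (−3.95, SE 0.54, adjusted p = 0.00032), and Epha4 higher, with 306–316 CPM against 160–197 CPM (0.73, SE 0.21, adjusted p = 0.0422). Against SGNs, cochlear HC-like cells were lower in 9 receptors and higher in 2, where 29.7% of all genes were lower and 25.7% higher. Epha1 was at 59.0–62.1 CPM in HC-like and at most 0.925 CPM in SGN-like cells (6.12, SE 0.22, adjusted p = 1.97e-05), and Ephb1 was higher as well (1.45). Epha5 (−6.67, SE 0.38, adjusted p = 8.29e-05) was lower, as was Epha10, at 90.8–97.2 CPM in SGN-like and at most 0.17 CPM in HC-like cells. Epha6 was at 2.81–4.47 CPM in SGN-like cells and at 0 in HC-like cells of both plates.

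**Figure D5:**
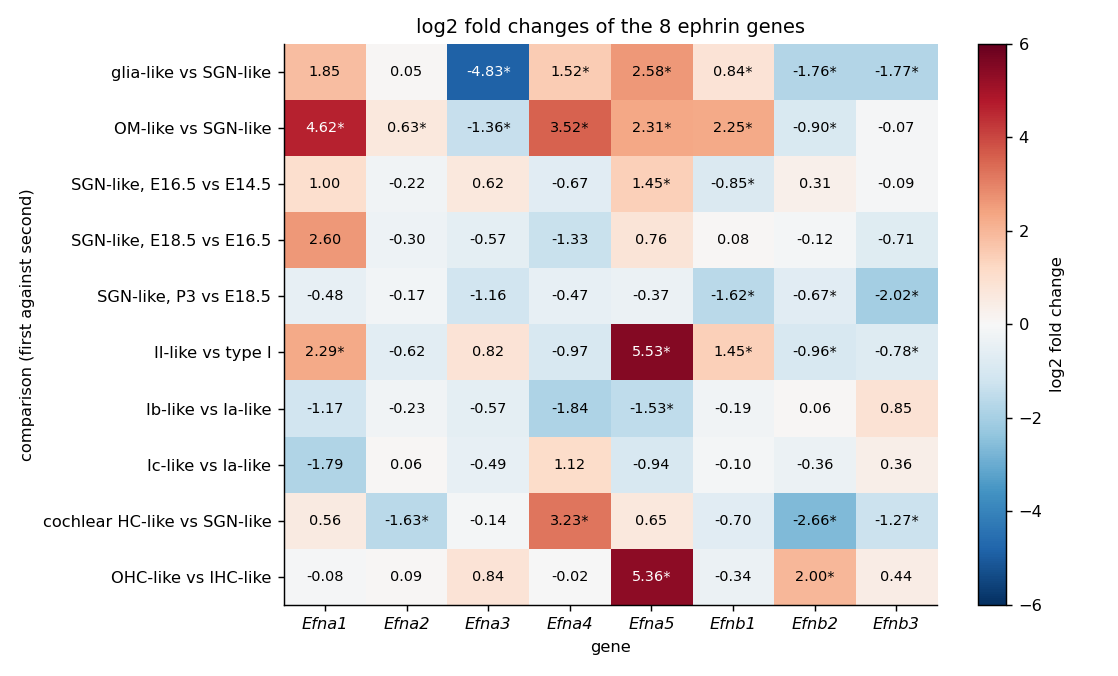
log2 fold change of each ephrin gene in 10 of the comparisons (first class or stage against the second); red is higher, blue lower, and a star marks an adjusted p under 0.05 in edgeR. The darkest red fields are those of Efna5 in II-like against type I (5.53) and OHC-like against IHC-like cells (5.36), and the darkest blue is Efna3 in glia-like against SGN-like cells (−4.83).

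The genes whose pattern was most like each ephrin were sought over 33 class-by-plate sums (SGN-, glia-, OM- and cochlear HC-like) among 12197 genes with a mean of at least 5 CPM. These correlations are descriptions, since sums of a plate share their library and the classes dominate the spread. Efnb2 followed Ntrk3, the neurotrophin-3 receptor (r = 0.91), Neo1 (0.91) and Tshz2 (0.90). Efna3 followed Eya1 (0.92), Cers6 (0.91) and Stx1a, a synaptic fusion protein (0.90). Ntrk3 (TrkC) is also the gene whose Cre drove the reporter, by the labels in 1 plate and by the study's methods in all E14.5 animals. Efnb1 was closest to the atypical cadherin Fat4 (0.90), Mmp16 (0.90) and Ankrd27 (0.89), and Efna4 to Echdc2 (0.92), Elk3 (0.90) and Slc39a7 (0.89).

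Efna1 had Car2, a carbonic anhydrase (0.87), the pericyte gene Pdgfrb (0.86) and Nadk2 (0.85) nearest, and Efna2 had Arhgef25 (0.89), D16Ertd472e (0.87) and Adamts10 (0.85). For Efnb3 the genes were Stox2 (0.87), Sobp (0.86) and Plcg1 (0.86). Efna5 reached the lowest likeness, with Prdx1 (0.84), Pla2g4a (0.83) and Phgdh (0.82).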

How the data were processed

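The authors aligned each well's reads to mm10 plus ERCC spike-ins with STAR (2 passes), used unique alignments, counted reads with featureCounts and deposited raw counts per gene and well (24489 genes, no molecular barcodes). Annotation and use of strand are not given in the sources used here. Another plate (384 wells) matched none of the samples and was left out. The labels name PVcre;Ai14 for E14.5 replicate 1 and the study's methods Ntrk3 (TrkC) Cre for E14.5, so samples were grouped by stage alone.

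Cells with over 1000 genes and under 5% ERCC counts were clustered stage by stage in scanpy 1.11.5 (2000 variable genes, 30 components, 30 neighbours, Leiden resolution 1), without the ephrins, the Eph receptors and the study's glial gene list as features, and named from at least 3 markers; the naming of hair cells was changed once, on sight of the clusters' markers and ahead of the tests. No doublet caller was run on these sorted wells. In all 33 cells got no broad name and 701 SGN-like cells no neuron class.

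Counts were summed per class and plate (at least 5 cells, 3 for hair cells) and given as CPM. The main test was edgeR's quasi-likelihood F test (version 4.0.16, R 4.3.3; TMM, filterByExpr, Benjamini-Hochberg over all genes tested, threshold 0.05), and signed numbers in brackets are log2 fold changes. DESeq2 1.42.0 and limma 3.58.1 (on means of log2(CPM + 1) per cell) were alternatives, beside others of filter, scaling, clustering and plates. The study tested single cells; here the plate is the replicate. Classes were formed from the cells tested, so p-values cover only the spread between plates with the classes taken as given. Classes of 1 plate share their animals and so are paired by design (deviations of same-plate classes correlated at 0.0172–0.235), and the plate was also fitted as a block. On simulated counts 61% of genes changed 4-fold were recovered for glia against SGN and 80% for II against type I. The simulations changed 100 genes per fold change and drew the sums of a plate independently. In the data 51.9 and 20.7% of all genes differed in these 2 comparisons, so the rates may not hold there.

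The members and lists were chosen with earlier results of these data known. Named were the 8 ephrins, up to 3 called Eph receptors per direction and comparison with the largest changes, up to 2 of 26 signalling partners, and 3 genes of like pattern per ephrin. No sequences are printed.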

Additional observations from a re-analysis of the deposited data

How the results depend on the processing

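Plate number limits these results: 2 plates per stage in most comparisons, and 2 plates in all for hair cells, where leaving out a plate gave values without a test (Efnb3 in OHC against IHC then turned from 0.44 to −0.37 without E18.5 replicate 2). With 4-fold changes simulated, 56% were recovered for early Ic against intermediate cells and 73% for OHC against IHC, so smaller changes could be missed there. Of the alternative counts of called ephrins, 205 stayed within 1.5 times and 41 did not. Of single-gene results 1879 kept direction and call, 56 gained a call, 51 lost it, and 2 changed sign with a call in either fit. Sign changes of values called in neither fit (such as Efna5 for E18.5 against E16.5, 0.76 to −0.82 without II-like cells) are not among the latter.

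Both called sign changes came from limma on equally weighted cells, which moved the median of all genes to 0.78 for E16.5 against E14.5 and to −0.70 for glia against SGN. Efnb3 was then 1.36 for E16.5 against E14.5 and Efna2 was −0.76 for glia against SGN. DESeq2's size factors moved that median by less than 0.1. In limma the called ephrins numbered 4 for E16.5 against E14.5 (main 2), 1 for E18.5 against E16.5 (0), 5 for P3 against E18.5 (3), 4 for SGNs within SS2_20 by stage (1), 2 for the glia minus SGN change (0), 3 for Ic against Ia (0), 1 for Ic against Ib (0) and 1 for OHC against IHC (2). DESeq2 called 2 for E18.5 against E16.5 (0), 1 for OM by stage (0), 1 for the glia minus SGN change (0), 2 for Ib against Ia (1), 1 for Ic against Ia (0) and 1 for intermediate against unspecialized (0).

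With SGN-like cells under their plate's median share of glial genes the counts were 1 for E16.5 against E14.5, 2 for SGNs within SS2_20 by stage and 1 for the glia minus SGN change. SS2_20 alone gave 0 for E16.5 against E14.5. Without the filter on low counts they were 2 for Ib against Ia, 2 for Ic against Ia and 1 for Ic against Ib. Leiden resolution 2 gave 3 for II against type I (main 5), 0 for Ib against Ia, 1 for Ic against Ia and 1 for intermediate against unspecialized, and the stricter filter on cells 1 for each of the last 2. With the E18.5 plates alone, chosen after seeing the data like the fits without II-like cells, Ib against Ia gave 0 and Ic against Ia 1. The cause was not tested in any of these.

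Leaving out 1 plate at a time gave 0 to 2 calls for E16.5 against E14.5, 0 to 1 for E18.5 against E16.5, 2 to 4 for P3 against E18.5, 5 to 7 for glia against SGN, 5 to 6 for OM against SGN and for OM against glia, 0 to 1 for SGNs within SS2_20, 3 to 5 for II against type I, 0 to 1 for Ib against Ia and 0 to 1 for intermediate against unspecialized cells. It gave 0 throughout for glia and OM by stage, their change against SGN, Ic against Ia, Ic against Ib and early Ic. The plate as a replicate block changed the calls given in the report for Efna1 (glia, 2.32, and II, 1.95), Efna2 (OM, 0.64) and Efna5 (HC, 0.57), and no other call and no count by over 1.5 times.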

Other observations

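HC-like cells were also caught before E18.5, in numbers too small for a comparison: 4 in E16.5 replicate 1, 8 in E16.5 replicate 3 and 5 in E17.5. Efna5 had 155, 136 and 14.7 CPM in them and Efna1 52.0, 183 and 22.6 CPM. Efna3 had 4.47 CPM in the first and 0.0 CPM in the others. Over all 69 HC-like cells of E18.5, which include the ones named neither inner nor outer, Efna5 was at 121 and 77.9 CPM and Efna1 at 27.7 and 23.1 CPM. In cochlear HC-like cells of the same plates Efna1 had 11.9 and 20.3 CPM, below those values. Among the cells named neither inner nor outer, clusters of 15 and 11 cells scored highest for vestibular HC markers. Neither cluster met the rule for a name. HC-like cells before E18.5 were not sorted into cochlear and vestibular ones.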
